A study of Mus musculus with 33 samples.

Results

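The 36 genes described here code for the machinery that turns glucose into lactate and for the response of cells to low oxygen. They were taken by symbol: 10 genes of glucose uptake and upper glycolysis, 7 of lower glycolysis, 5 of lactate and pyruvate handling, 4 hypoxia-inducible factor (HIF) subunits and prolyl hydroxylases, and 10 other genes known to respond to hypoxia. All 36 have a row among the 22853 genes of the guide RNA table and the 24186 genes of the organoid table. In the trichostatin A and tumor tables, which hold 26230 genes each, 35 have a row, and Aldoa was not analysed there.

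Glycolysis splits glucose into pyruvate, and lactate dehydrogenase with the monocarboxylate transporters turns pyruvate into lactate and carries it out of the cell. When oxygen is low, the prolyl hydroxylases Egln1 and Egln3 no longer mark the HIF alpha subunits Hif1a and Epas1 for destruction, and the stabilised factors raise transcription of glucose carriers, most glycolytic enzymes and genes such as Vegfa, Car9, Bnip3 and P4ha1. Because HIF alpha is regulated mainly as a protein, its mRNA level is not a measure of HIF activity. Mammary epithelium and mammary tumors use aerobic glycolysis as well, so these genes are expressed with oxygen present too.

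The series measured RNA by sequencing in 33 mouse samples around Trps1, a GATA-type zinc finger transcriptional repressor. HC11 cells, a mouse mammary epithelial line, received the histone deacetylase inhibitor trichostatin A (TSA) at 300 nM for 24 h or DMSO, with 3 libraries each. In another set, HC11 cells carried sgTrps1 #1, a guide RNA that targets Trps1, or the scrambled control sgScr #1, with 2 libraries and 1 guide per arm, so an effect of the guide's target cannot be told apart from other effects of that guide. Primary mammary organoids were Cdh1F/F;Trps1+/+, Cdh1+/F;Trps1F/F or Cdh1F/F;Trps1F/F, all transduced with AdCre (an adenovirus carrying Cre) and grown for 14 or 28 days, with 2 libraries per group. Every organoid and tumor group, controls included, carried at least 1 floxed Cdh1 allele, Cdh1 being the gene of the adhesion protein E-cadherin. Tumors came from WAP-cre;Cdh1F/F mice, in which a milk protein gene promoter drives Cre in mammary epithelium, and were Trps1+/+ (3 tumors of 3 mice) or Trps1F/F (8 tumors of 6 mice, of which mouse 18LCO025 gave 3). The labels put the Trps1F/F tumors into subgroups 1, 2 and 3 with 4, 2 and 2 tumors. The sources used here do not say how the subgroups were made, and they give no ages. If the subgroups were made from the expression of these libraries, the p-values of the subgroup comparisons are not independent of that choice.

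Libraries held 17788566 to 25585997 assigned reads in the TSA set, 21346514 to 38708003 in the guide RNA set, 14833245 to 30305818 in the organoid set and 18304633 to 24192323 in the tumor set, and every pair of replicates differed by more than counting noise. On the log2 scale, Trps1 stood at 13.94 to 14.02 with DMSO and at 10.90 to 10.97 with TSA. It stood at 13.51 to 13.96 in Trps1+/+ organoids, 11.05 to 11.39 in Cdh1F/F;Trps1F/F organoids and 9.45 to 10.04 in Cdh1+/F;Trps1F/F organoids. In the guide RNA set Trps1 mRNA was 13.79 and 13.89 with sgScr against 13.85 and 13.91 with sgTrps1, which is no check of a guide that cuts the coding sequence. Cdh1 mRNA was 13.04 to 13.94 in all organoids, so the mRNA does not show the loss of Cdh1 there. In tumors Trps1 mRNA was 9.9 to 12.63 in Trps1F/F and 11.46 to 12.94 in Trps1+/+. The genotypes overlapped, so the mRNA does not separate them there. Cdh1 in tumors was 12.75 to 13.74 in subgroup 1 and 6.49 to 10.64 in all others. The labels do not say whether replicates of cells or organoids were separate cultures, and p-values there cover only the spread from library to library, possibly a technical one. Throughout, a gene is called higher or lower where the Benjamini-Hochberg adjusted p of limma, over all genes tested in that comparison, was under 0.05, and levels are normalized counts, comparable only within one table.

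RefSeq promoters (build GRCm38.p6, 250 bases before to 50 after each start) were listed for 34 of the 36 members; Ndrg1 and Epas1 have no entry. HIF binds the core letters ACGTG and, less strongly, GCGTG. Searched on both strands, with the overlap that CACGTG gives counted on each strand, ACGTG stood in at least 1 listed promoter of 25 of the 34 members (73.5%), against 21.8% of 27025 genes with a promoter in the table. Either core stood in 91.2% of the members and 46.7% of all genes. Counted per promoter, ACGTG stood in 58.3% of the 48 member promoters and 19.6% of all 32851. The list includes genes taken because they are known to respond to hypoxia, so these shares are not independent of that choice. The members' promoters were also richer in G and C, with a median of 62.8% against 52.7%, so the shares are not from promoters of like composition. A match describes letters in this window and is not a measured binding site. The sequences printed are the promoters of 4 hypoxia response genes that all fell in Cdh1F/F;Trps1F/F organoids at day 14 and with time in Cdh1F/F;Trps1+/+ organoids (P4ha1, P4ha2, Bnip3, Adm), of the glucose carrier gene Slc2a1 and of the first listed start of Ldha, a pair that moved in opposite directions under TSA. Both cores on either strand are in capitals.
P4ha1 (chr10:59323046-59323345, plus strand): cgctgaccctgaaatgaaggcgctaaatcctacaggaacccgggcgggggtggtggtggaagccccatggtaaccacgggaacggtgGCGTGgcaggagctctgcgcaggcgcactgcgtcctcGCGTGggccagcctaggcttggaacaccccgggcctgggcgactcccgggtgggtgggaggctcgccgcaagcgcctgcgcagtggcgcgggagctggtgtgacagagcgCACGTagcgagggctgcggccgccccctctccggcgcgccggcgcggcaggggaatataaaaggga
P4ha2 (chr11:54100674-54100973, plus strand): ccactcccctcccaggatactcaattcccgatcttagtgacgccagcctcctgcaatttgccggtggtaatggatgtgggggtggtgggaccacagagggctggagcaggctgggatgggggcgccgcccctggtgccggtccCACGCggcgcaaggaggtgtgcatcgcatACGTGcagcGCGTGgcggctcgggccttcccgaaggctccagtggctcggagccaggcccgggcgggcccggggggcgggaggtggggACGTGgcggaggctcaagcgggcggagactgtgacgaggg
Bnip3 (chr7:138909457-138909756, minus strand): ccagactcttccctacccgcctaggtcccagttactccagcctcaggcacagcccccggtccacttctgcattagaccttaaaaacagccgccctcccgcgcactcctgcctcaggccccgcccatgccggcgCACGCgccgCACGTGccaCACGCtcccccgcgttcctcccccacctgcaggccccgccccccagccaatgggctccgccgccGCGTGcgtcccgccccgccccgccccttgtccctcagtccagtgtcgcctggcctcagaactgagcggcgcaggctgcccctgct
Adm (chr7:110627407-110627706, plus strand): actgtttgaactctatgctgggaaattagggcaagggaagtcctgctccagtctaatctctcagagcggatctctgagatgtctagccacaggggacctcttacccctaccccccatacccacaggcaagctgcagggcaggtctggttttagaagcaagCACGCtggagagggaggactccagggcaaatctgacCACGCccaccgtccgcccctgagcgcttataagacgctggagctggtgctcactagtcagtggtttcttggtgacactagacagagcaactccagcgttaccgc
Slc2a1 (chr4:119108495-119108794, plus strand): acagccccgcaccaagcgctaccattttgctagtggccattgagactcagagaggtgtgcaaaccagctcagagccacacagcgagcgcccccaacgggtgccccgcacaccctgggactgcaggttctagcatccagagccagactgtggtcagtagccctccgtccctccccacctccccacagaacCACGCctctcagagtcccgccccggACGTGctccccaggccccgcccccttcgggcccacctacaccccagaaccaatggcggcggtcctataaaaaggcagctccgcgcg
Ldha (chr7:46845554-46845853, plus strand): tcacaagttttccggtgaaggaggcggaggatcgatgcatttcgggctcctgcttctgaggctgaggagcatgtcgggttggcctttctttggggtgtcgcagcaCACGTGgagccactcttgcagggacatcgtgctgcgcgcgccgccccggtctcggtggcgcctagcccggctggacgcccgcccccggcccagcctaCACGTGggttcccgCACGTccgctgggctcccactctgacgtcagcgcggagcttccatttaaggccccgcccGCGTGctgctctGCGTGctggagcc
The Ldha window held 5 ACGTG matches and Bnip3 and P4ha2 held 2 each, whereas Adm held none and carried 2 GCGTG matches. Genes with matches moved in both directions: under TSA, Ldha fell and P4ha2 rose.

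Isozymes of one step were compared per kilobase of exon, on the mean normalized count of a group. In HC11 cells with DMSO, Hk1 stood at 606 and Hk2, the hexokinase induced by HIF and growth signals, at 241. With the scrambled guide the order was the other way, Hk1 at 331 and Hk2 at 714, and with sgTrps1 it was 486 and 295. Ldha, whose product favours lactate, stood above Ldhb, whose product favours pyruvate, in every HC11, organoid and tumor group. In HC11 cells with DMSO they stood at 6520 and 203, in Cdh1F/F;Trps1+/+ organoids of day 28 at 4809 and 1627, and in subgroup 2 tumors at 4214 and 88.4. Aldoa stood at 6796 to 8695 in the organoid groups and Aldoc, the aldolase best known from brain, at 523 to 1397. Hif1a stood above Epas1 in HC11 cells (750 against 1.13 with DMSO), and in every organoid group, where Hif1a stood at 1097 to 2150 and Epas1 at 311 to 946. In tumors of subgroup 1 the order was the other way, Hif1a at 379 and Epas1 at 554, whereas the Trps1+/+ tumors had 964 and 471.

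In HC11 cells TSA divided the genes within each role. The glucose carrier gene Slc2a1, the aldolase gene Aldoc, the HIF subunit Epas1 and the stress gene Ddit4, an inhibitor of mTORC1, rose strongly, whereas Ldha, Pgk1, Egln1 and Hif1a fell. Of 33 members tested, 20 rose (60.6%) and 10 fell (30.3%), where 43.6% of all 13035 genes tested rose and 41.6% fell. The median log2 fold change was 0.51 over the members and 0.02 over all genes. At least a 2-fold change was seen for 12 members that rose and for 2 that fell. Epas1, Slc16a3 and Adm, counted among those that rose, passed the filter on low values only through their TSA libraries. Their calls are therefore not independent of that filter.

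Glucose uptake and upper glycolysis held 6 members that rose and 2 that fell among 9 tested. Slc2a1, the main basal glucose carrier of most cells, had normalized counts of 1364, 1311 and 1326 with DMSO and 4250, 4330 and 4414 with TSA. The groups stood far apart, with a log2 fold change of 1.70 ± 0.037 (SE, n = 3 per group, adjusted p = 2.43e-12). Pfkfb3, whose product makes the activator of phosphofructokinase, went from 127.6 to 136.5 with DMSO up to 512 to 527 with TSA (1.96 ± 0.077). Aldoc went from 19.8 to 22.5 up to 190 to 214 (3.22 ± 0.14), the widest change of the glycolytic enzymes tested. Pfkm, Gpi1 and Pfkp rose by 0.63, 0.60 and 0.24 on the log2 scale. Among the isozymes, the liver type phosphofructokinase gene Pfkl fell by 0.67 while the muscle type gene Pfkm rose, and Hk2 fell by 0.24 while Hk1 had a log2 fold change of 0.01 and was not called.

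Lower glycolysis was split, with 3 of 6 tested members up and 3 down. Pkm, the pyruvate kinase gene and the member with the highest counts, held 78040, 83260 and 82900 with DMSO and 173400, 172800 and 178400 with TSA. It rose by 1.10 ± 0.057 (SE) on the log2 scale and Tpi1 rose by 1.27 ± 0.039. Pgk1, Eno1 and Pgam1, which act between these enzymes in the pathway, fell by 0.80, 0.64 and 0.59. Gapdh was called higher by 0.43, but one DMSO library stood at 2848 and the others at 5333 and 4883. Without DMSO replicate 1, TSA replicate 1 or TSA replicate 3 the Gapdh call was lost, at log2 fold changes of 0.15, 0.34 and 0.48.

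In lactate and pyruvate handling, Ldha held 22120, 21790 and 20840 with DMSO and 7639, 7822 and 8104 with TSA. All TSA libraries stood below all DMSO libraries, a log2 fold change of -1.46 ± 0.040 (SE, adjusted p = 1.51e-11), the lowest of the members. TSA and DMSO libraries did not overlap, in either direction, for 32 of the 35 members with a row. Slc16a3, the lactate exporter induced by HIF, was near its detection limit: 62 reads with TSA against 3 with DMSO, a ratio of 18.0 with a 95% counting interval from 5.87 to 89.5. Slc16a1, which carries lactate in both directions, fell by 0.18, a call lost after quantile normalization (-0.05). Pdk1, which restrains pyruvate oxidation, rose by 0.17, and Ldhb had -0.11 and was not called. The Pdk1 call was lost without DMSO replicate 2 or TSA replicate 1, at 0.13 in both.

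Of the HIF system, Epas1 (HIF-2 alpha) held 8.18, 4.48 and 6.25 with DMSO and 168, 161 and 152 with TSA. It had a log2 fold change of 4.50 ± 0.22. Epas1 passed the filter on low values only through its TSA libraries, so no p-value is given. Hif1a went the other way, from 4317 to 4604 down to 2575 to 2702 (-0.74 ± 0.039). Egln1, the main oxygen sensor, fell from 2654 to 2768 down to 1283 to 1444 (-1.02 ± 0.049). Egln3 did not pass the filter on low values, with 22 reads against 2.

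Of the other hypoxia response genes, 8 of 10 rose and 1 fell. Ddit4 held 897, 908 and 758 with DMSO and 5748, 5762 and 5855 with TSA (log2 fold change 2.76 ± 0.061, adjusted p = 2.92e-12). P4ha2, a collagen prolyl hydroxylase subunit, went from 215 to 254 up to 894 to 927 (1.97), and Ndrg1, a stress and differentiation gene, from 1595 to 1722 up to 4864 to 5217 (1.60). Car9, a carbonic anhydrase at the cell surface and a common marker of HIF-1 activity, rose from 19.4 to 23.5 up to 70.9 to 87.5 (1.85), a low level in both groups. Vegfa, the angiogenic growth factor gene, fell by 0.49, from 1163 to 1316 down to 845 to 929. Bnip3, a mitophagy receptor gene, rose by 0.94, Ankrd37 by 0.78 and P4ha1 by 0.51, although the Ankrd37 call was lost after quantile normalization (0.17), and Higd1a, a mitochondrial inner membrane protein gene, had -0.04 and was not called. Adm, a peptide hormone gene, had 38 reads against 1 and a ratio of 33.1 (95% counting interval 5.58 to 1.34e+03). Eno2, the neuronal enolase gene of lower glycolysis, was not tested and had 47 reads against 1, a ratio of 40.9 (6.99 to 1.65e+03).

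**Figure D1:**
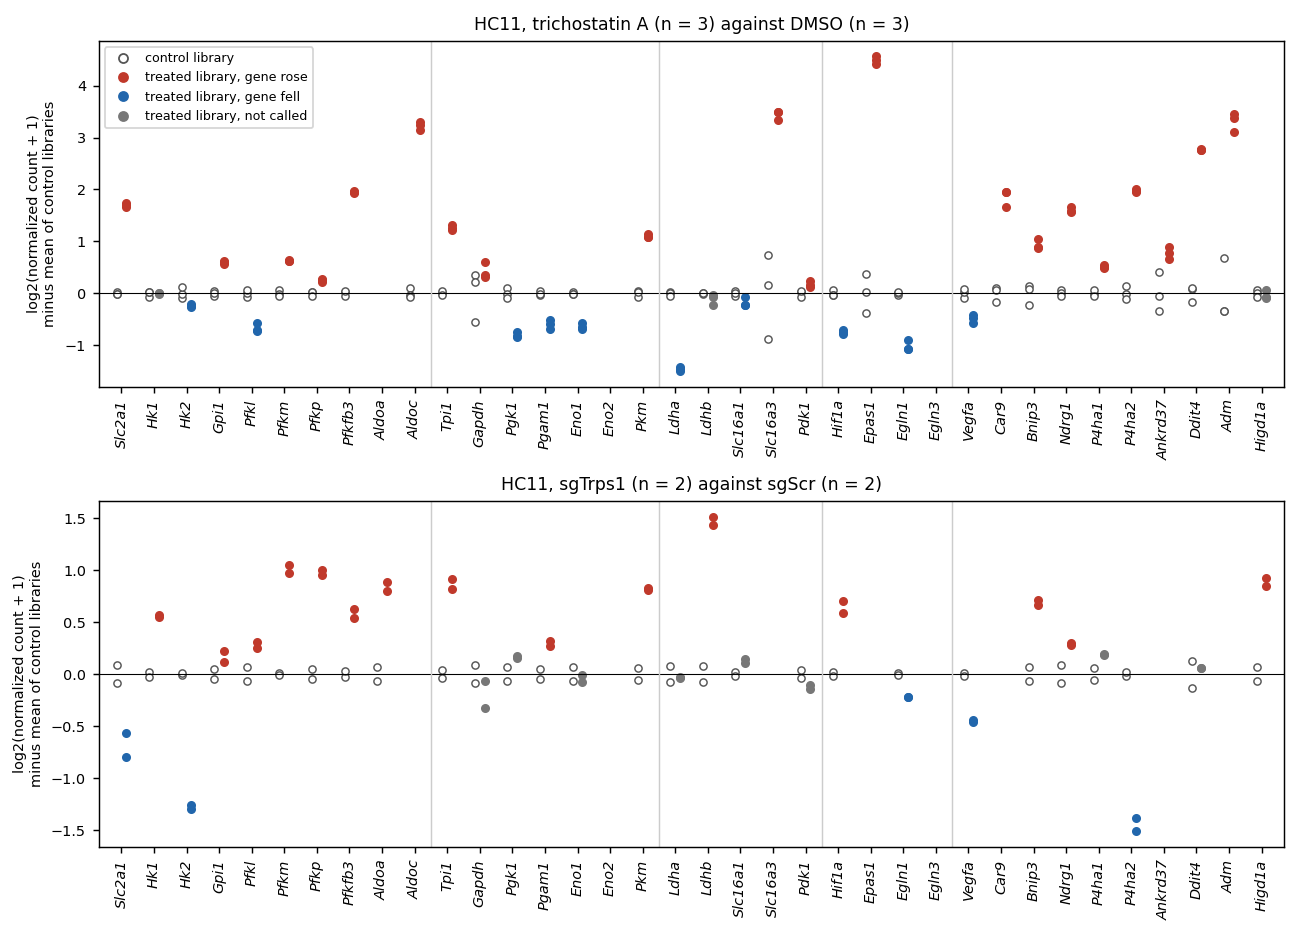
Log2(normalized count + 1) of each tested member in every HC11 library, minus the mean of the control libraries, with TSA against DMSO above and sgTrps1 against sgScr below; open circles are control libraries, filled circles TSA or sgTrps1 libraries, red where the member was called higher, blue where lower and grey where not called, and grey lines separate the roles. With TSA, Epas1 stands highest (mean difference 4.50) and Ldha lowest (-1.46); with sgTrps1, Ldhb stands highest (1.48) and P4ha2 lowest (-1.45).

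Under TSA, of 10 other glycolytic isoforms and glucose carriers tested, 8 rose and 1 fell, with Slc2a6 at 7.09, Pfkfb4 at 2.67 and Slc2a8 at 2.56 on the log2 scale. In pyruvate oxidation and the citric acid cycle 14 of 24 rose and 5 fell, with Pdk2, a pyruvate dehydrogenase kinase gene, at 2.67. In gluconeogenesis 1 of 5 rose (Pcx, 2.24) and 4 fell (Fbp1, -3.71). Slc2a6 passed the filter on low values only through its TSA libraries, and Fbp1 only through its DMSO libraries. Of 24 other hypoxia induced genes, 11 rose and 9 fell, with Mxi1 at 2.59 and Bhlhe40 at -1.98. Of all genes tested, 43.6% rose and 41.6% fell, so the split of these 24 was near that of all genes. The glucose sensing genes Txnip and Arrdc4, which restrain glucose uptake, rose by 4.80 and 3.60. Moving with these changes, all 10 proliferation genes were lower with TSA and their summed normalized counts went from 84090 to 87090 down to 28730 to 29440. Of 7 epithelial markers tested 3 rose and 4 fell, and their sums went from 99490 to 110800 down to 37740 to 39170. Krt5 (-3.157) and Krt14 (-1.455) were among those that fell, and Cldn4 (5.555) and Krt18 (1.845) among those that rose. Cldn7 was not tested and on the log2 scale stood at 0, 1.7 and 0 with DMSO and 0 in all TSA libraries. The part of proliferation and of the epithelial markers in the changes of the members was not tested.

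In HC11 cells with sgTrps1 the glycolytic enzymes and the lactate dehydrogenase subunit Ldhb were mostly higher, while the entry genes Slc2a1 and Hk2 and the hypoxia genes P4ha2 and Vegfa were lower. Of 28 members tested, 15 rose (53.6%) and 5 fell (17.9%), where 34.6% of all 12552 genes tested rose and 32.4% fell. The median log2 fold change was 0.23 over the members and 0.02 over all genes. A further 8 members did not pass the filter on low values.

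Upper glycolysis held 7 members that rose and 2 that fell among 9 tested, and the 2 that fell were the first steps. Hk2 held 4225 and 4298 with sgScr and 1781 and 1739 with sgTrps1, a log2 fold change of -1.27 ± 0.057 (SE, n = 2 per group, adjusted p = 3.66e-10). Slc2a1 held 632 and 562 against 404 and 345 (-0.67 ± 0.091). Hk1 moved the other way, from 2879 and 2778 to 4173 and 4123 (0.55). Pfkm held 516 and 508 against 1057 and 1003 (1.01), and Pfkp held 830 and 893 against 1716 and 1663 (0.97). Aldoa rose by 0.84, Pfkfb3 by 0.59 and Pfkl by 0.28. Gpi1 was called at 0.17, but the call was lost without either sgTrps1 library, at 0.12 and 0.22.

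In lower glycolysis Tpi1 rose by 0.87, Pkm by 0.82 and Pgam1 by 0.29, and none fell. Pgk1 (0.17), Eno1 (-0.04) and Gapdh (-0.20) were not called. Gapdh had only 25.31 to 33.98 normalized counts here and 31.1 to 87.9 in the organoids, although Tpi1 and Pgk1 had at least 2827 and 3068 in those tables. It has many near-identical pseudogene copies that counting can split, so its values in those tables are uncertain. Ldhb held 180 and 162 with sgScr and 492 and 464 with sgTrps1 (1.48 ± 0.092, adjusted p = 9.91e-09), the highest change of the members, whereas Ldha held 13780 and 12380 against 12850 and 12790 and was not called. Slc16a1 (0.13) and Pdk1 (-0.12) were not called either.

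Hif1a rose from 4969 and 4821 to 7393 and 7965 (0.65 ± 0.065, adjusted p = 1.05e-06). Egln1 was called lower by 0.23, and that call was lost without either sgTrps1 library, at -0.23 and -0.22. Epas1, Egln3 and Slc16a3 had at most 2 reads per group, so no ratio is given. Of the other hypoxia response genes, 3 of 7 tested rose and 2 fell. P4ha2 held 806 and 832 with sgScr and 313 and 287 with sgTrps1 (-1.45 ± 0.076, adjusted p = 2.04e-09), and Vegfa fell from 3226 and 3163 to 2357 and 2325 (-0.45). Higd1a rose by 0.89, Bnip3 by 0.69 and Ndrg1 by 0.29, while P4ha1 (0.18) and Ddit4 (0.06) were not called. Among the untested members, Eno2 had 34 reads with sgTrps1 and 1 with sgScr, a ratio of 23.2 (95% counting interval 3.89 to 944). Car9 had 3 against 7, a ratio of 0.293 (0.0488 to 1.28), and Adm 7 against 2, a ratio of 2.39 (0.455 to 23.6), both intervals including equal levels. Aldoc held at most 5.17 and Ankrd37 at most 5.90 normalized counts in any library.

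The citric acid cycle list moved upwards with sgTrps1, with 18 of 24 genes tested higher and 1 lower, among them Mdh1 (1.58), Pdhb (1.23) and Mpc2 (0.99). Of 23 other hypoxia induced genes 9 rose and 9 fell, with Bnip3l at 0.75 and Car12, a carbonic anhydrase gene, at -2.21. Of all genes tested, 34.6% rose and 32.4% fell, so the split of these 23 was near that of all genes. Glucose sensing and regulator genes fell in 9 of 13 cases, among them Myc (-1.11), and rose in 2, Arrdc4 (0.75) and Txnip (0.36), the latter named after its value was seen. Genes of chromosome 10 (median 0.42 over 574 genes) and chromosome 16 (0.32 over 363) stood above the rest of the genome in this comparison. Of the members, Hk1, Pfkl, P4ha1 and Ddit4 lie on chromosome 10. Among the 24 tested members on neither of these chromosomes, 13 rose and 5 fell. The share of all genes off both chromosomes is not given here, and the part of the chromosomes in the members' changes was not tested. Proliferation genes rose in 9 of 10 cases, with sums of 20540 to 21620 with sgScr and 36100 to 38110 with sgTrps1. Of 5 epithelial markers tested 3 rose and 2 fell, with sums going from 19730 to 22980 up to 73930 to 74240. Krt5 (2.678), Krt14 (1.32) and Cldn4 (2.062) rose, while Epcam (-1.403) and Krt8 (-0.51) fell. Krt18 was not tested and on the log2 scale stood at 0 in both sgScr libraries and at 0.61 and 0 with sgTrps1. The part of proliferation and of the epithelial markers in the changes of the members was not tested.

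In the organoids the 6 groups were fitted together. Comparisons that share a group are not independent of each other: the Cdh1F/F;Trps1+/+ libraries are the controls of both genotype comparisons at each day. In bulk RNA, fewer cells of a type and less RNA per cell cannot be told apart, and the organoid groups differed widely in the markers of other cells. Summed fibroblast markers were 653000 to 740400 in Cdh1+/F;Trps1F/F organoids of day 14 and 356300 to 425900 at day 28. The sums were 89390 to 96920 and 25520 to 39010 in Cdh1F/F;Trps1+/+, and 21190 to 21790 and 8170 to 9311 in Cdh1F/F;Trps1F/F organoids. All 8 fibroblast markers were detected in every group. The part of other cells in the results below was not tested.

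Loss of Trps1 at day 14, in Cdh1F/F organoids, went with lower P4ha1, P4ha2, Slc16a1, Egln3, Bnip3, Adm and Eno2, and with higher Vegfa. Of 36 members tested, 3 rose (8.3%) and 12 fell (33.3%), where 14.5% of 15860 genes tested rose and 17.9% fell. The median log2 fold change was -0.11 over the members and -0.01 over all genes. Glucose uptake and upper glycolysis had 4 members called of 10, with 2 up and 2 down. Lower glycolysis had 1 called of 7, lactate and pyruvate handling 3 of 5 and other hypoxia response genes 6 of 10.

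P4ha1 held 4840 and 4329 in Trps1+/+ and 1833 and 1883 in Trps1F/F organoids, a log2 fold change of -1.30 ± 0.12 (SE, n = 2 per group, adjusted p = 4.80e-06). P4ha2 held 1869 and 1864 against 711 and 681 (-1.42). Both genes build the enzyme that hydroxylates collagen, and the summed fibroblast markers given above fell between the same groups. Bnip3 held 3302 and 2768 against 1568 and 1756 (-0.86), Egln3 held 1031 and 1274 against 430 and 504 (-1.30), and Adm held 1215 and 1118 against 544 and 563 (-1.07). For each of these genes both Trps1F/F libraries stood below both controls. The groups did not overlap, in either direction, for 30 of the 36 members, whereas 15 were called. Such a separation is therefore not particular to these genes. Slc16a1 held 4056 and 3776 against 1780 and 1849 (-1.11, adjusted p = 2.70e-07), Ldhb fell by 0.76, Eno2 by 0.91 and Pfkp by 0.32. Vegfa rose from 4021 and 4036 to 6255 and 6697 (0.68 ± 0.15). The calls for Ddit4 (-0.30), Slc2a1 (-0.36), Slc16a3 (-0.80), Pfkfb3 (0.42) and Pfkl (0.34), were each lost without 1 or more of the 4 libraries, with adjusted p up to 0.271.

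At day 28 the direction within the list was mixed. Of 36 members, 10 rose (27.8%) and 12 fell (33.3%), against 19.9% and 23.4% of all genes, with medians of 0.05 and -0.04. Hif1a held 5779 and 7158 in Trps1+/+ and 12210 and 13140 in Trps1F/F organoids (0.98 ± 0.12, adjusted p = 2.29e-05). Pgk1, the phosphoglycerate kinase gene, held 3426 and 3775 against 6855 and 6120 (0.85 ± 0.091, adjusted p = 1.07e-05). Both Trps1F/F libraries stood above both controls for each gene. Groups without overlap, in either direction, were seen for 26 of the 36 members, whereas 22 were called. Pdk1 rose by 0.73, Higd1a by 0.70, Pgam1 by 0.49 and Egln1 by 0.41. The lowest values belonged to Egln3, with 301 and 421 against 125 and 143 (-1.41), Ldhb with 2679 and 2431 against 1432 and 1136 (-1.0), P4ha2 (-0.84), Pfkm (-0.79) and Eno2 (-0.75). Pfkfb3, called higher at day 14, was lower at day 28, with 1963 and 1603 against 1363 and 1106 (-0.53). Slc16a1 (-0.52) and Ddit4 (-0.45) fell as well. Calls for Aldoc (-0.41), Car9 (0.86), Hk1 (-0.25), Ldha (0.36), Pfkp (-0.21), Slc2a1 (-0.42), Tpi1 (0.36) and Vegfa (0.53) were each lost without 1 or more of the 4 libraries, with adjusted p up to 0.146. Proliferation gene sums were 21190 to 24170 in Trps1F/F and 5885 to 7641 in Trps1+/+ organoids at day 28.

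Of the other genes of these pathways, the muscle isoforms Eno3 (-1.59 at day 14, -1.98 at day 28), Pgam2 (-1.82, -2.59) and the glycogen phosphorylase Pygm (-1.56, -2.25) were lower, beside lower skeletal muscle markers in all 8 cases at both days. Pdk4, which like Pdk1 restrains pyruvate oxidation, rose by 2.27 at day 14 and 3.35 at day 28. Among 33 other hypoxia induced genes 4 rose and 13 fell at day 14, with Lox at -2.80 and Plod2 at -1.20, both collagen-modifying enzymes. At day 28, 13 rose and 14 fell. Of all genes tested, 14.5% rose and 17.9% fell at day 14, and 19.9% rose and 23.4% fell at day 28.

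**Figure D2:**
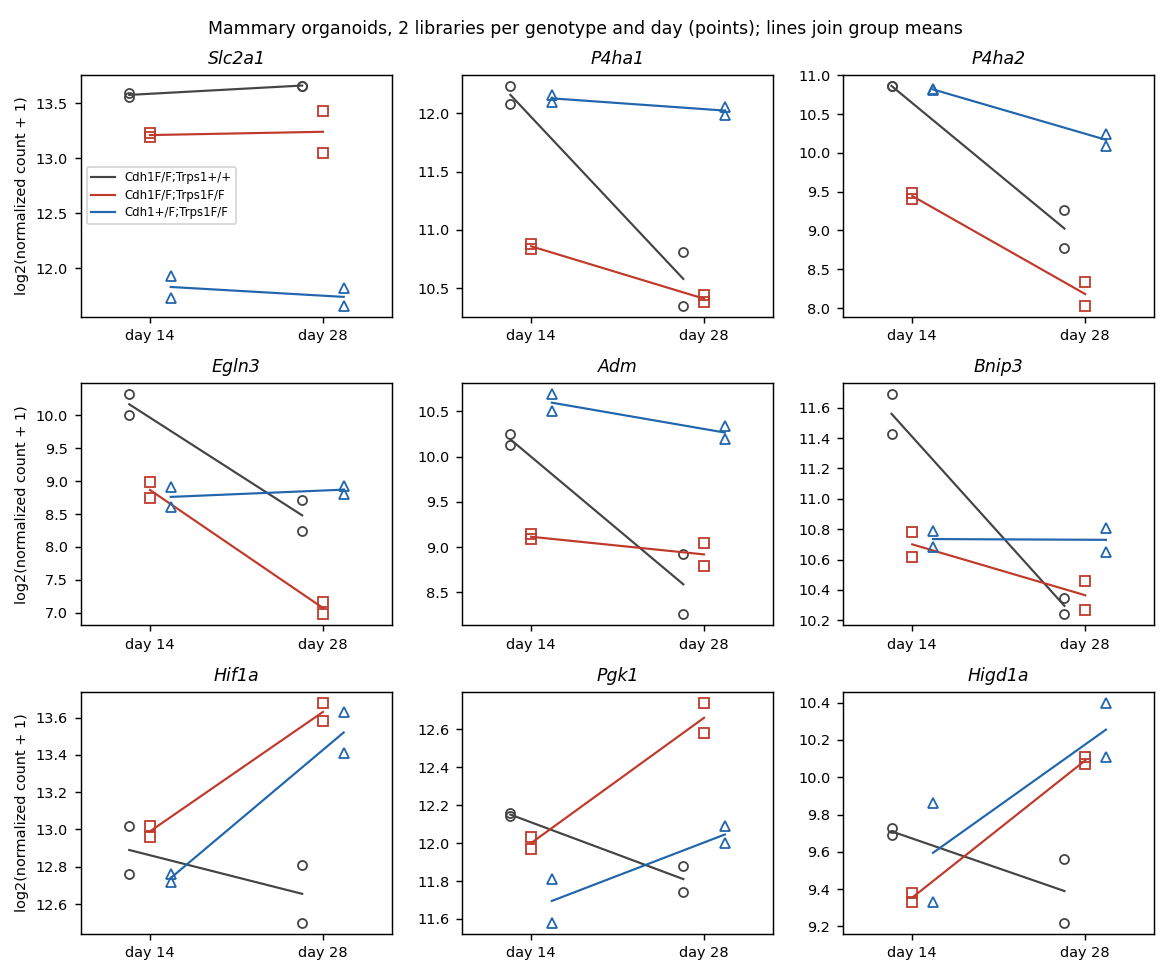
Log2(normalized count + 1) of 9 members in the organoids by day and genotype; each point is 1 library and lines join the group means. Slc2a1 is lowest in the Cdh1+/F;Trps1F/F libraries (3244 to 3892 normalized counts, against 8462 to 12980 in the others), and P4ha1, Adm and Bnip3 fall with time in Cdh1F/F;Trps1+/+ organoids.

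Whether the difference between Trps1F/F and Trps1+/+ changed with time was tested directly, as the difference at day 28 minus that at day 14. It moved upwards for 9 members (25%) and downwards for 1 (2.8%), where 8.22% of all genes moved upwards and 9.72% downwards, with medians of 0.18 and -0.02. Adm showed the widest change, 1.40 ± 0.24 (SE, adjusted p = 0.00271), going from a difference of -1.07 at day 14 to 0.33, not called, at day 28. P4ha1 moved by 1.13 ± 0.17, from -1.30 to -0.17, the latter not called. Higd1a moved by 1.05, Pgk1 by 1.00, Bnip3 by 0.94, Hif1a by 0.88, Pdk1 by 0.63, and Pgam1 and Slc16a1 by 0.59 each. Pfkfb3 moved by -0.95 ± 0.16. The Pgam1 call was lost without the first Cdh1F/F;Trps1F/F library of day 14 (0.57, adjusted p = 0.0512), and the other 9 calls were kept in every alternative run. None of the 10 calls concerned glucose entry or hexokinase: Slc2a1 had -0.06 and Hk2 0.39, neither called.

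The values behind these changes differed in kind. For Adm, P4ha1 and Bnip3 the Trps1+/+ organoids fell with time, Bnip3 from 3302 and 2768 to 1206 and 1309, while the Trps1F/F organoids were already low at day 14. For Hif1a and Pgk1 the Trps1F/F organoids rose with time, Hif1a from 8290 and 7973 to 12210 and 13140. Of 33 other hypoxia induced genes, 7 moved upwards and 5 downwards in the same test, with Ero1l (1.79), Stc1 (1.65) and Tmem45a (1.65) highest. Among all genes, 8.22% moved upwards and 9.72% downwards. The interaction of the proliferation genes was upwards in 9 of 10 cases, and 2 of 8 fibroblast markers were called, both downwards.

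**Figure D3:**
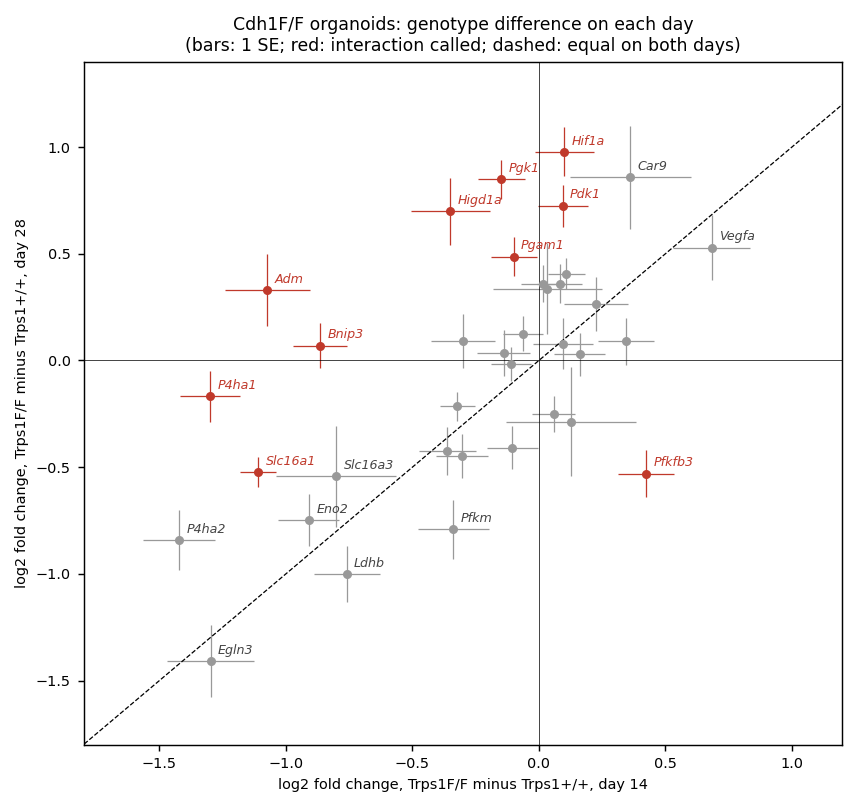
Log2 difference between Cdh1F/F;Trps1F/F and Cdh1F/F;Trps1+/+ organoids at day 14 (x axis) and day 28 (y axis), 1 point per member with bars of 1 SE; the dashed line marks equal differences, and red points are the members whose change with time was called. Adm lies at -1.07 and 0.33, and Pfkfb3, the one called member under the line, at 0.42 and -0.53.

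From day 14 to day 28, several hypoxia response transcripts fell in the Cdh1F/F;Trps1+/+ organoids. Of 36 members 6 rose (16.7%) and 17 fell (47.2%), against 11.1% and 14.7% of all genes, with medians of -0.25 and 0.01. P4ha2 held 1869 and 1864 at day 14 and 437 and 618 at day 28 (-1.84 ± 0.14, adjusted p = 1.85e-06). Adm held 1215 and 1118 against 306 and 484 (-1.60), P4ha1 4840 and 4329 against 1301 and 1799 (-1.58), and Egln3 1031 and 1274 against 301 and 421 (-1.68). Eno2 fell by 1.45, Bnip3 by 1.27, Slc16a3 by 1.16, Hk2 by 0.93, Slc16a1 by 0.74, Epas1 by 0.71 and Pdk1 by 0.47. Ddit4 rose from 2209 and 2461 to 4075 and 4746 (0.92), Pfkfb3 by 0.60 and Aldoc by 0.49. Vegfa, Car9, Ankrd37 and Higd1a were not called. Of 33 other hypoxia induced genes, 2 rose and 15 fell, with Ero1l at -2.10, Rragd at -1.57 and Stc1 at -1.40. Fibroblast markers fell in 6 of 8 cases over the same time. Without the first day 14 library 15 members were called in place of 23, the calls for Hk1 (0.40), Pkm (0.43), Ldhb (0.41), Ndrg1 (-0.42), Pgk1 (-0.33), Pfkp (-0.26), Gpi1 (-0.24) and Egln1 (-0.22) being lost, and the Tpi1 call (-0.27) was lost without any of the other 3 libraries.

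In Cdh1F/F;Trps1F/F organoids 7 members rose (19.4%) and 12 fell (33.3%) with time, against 14.8% and 20.6% of all genes, with medians of -0.09 and -0.03. Egln3 fell from 430 and 504 to 125 and 143 (-1.79), Eno2 by 1.29, P4ha2 by 1.26 and Epas1 by 0.62, while Ddit4 rose by 0.77, Higd1a by 0.73, Pgk1 by 0.66 and Hif1a by 0.64. These calls were kept without each library. The count was 10 without the first day 14 library, 11 without the second and 10 without the second day 28 library, against 19 with all. Calls for Bnip3 (-0.33), Car9 (0.71), Hk2 (-0.53), P4ha1 (-0.45), Pfkfb3 (-0.35), Pfkl (-0.40), Pfkm (-0.46), Pgam1 (0.37), Pkm (0.42), Slc16a3 (-0.90) and Vegfa (-0.57) were lost in at least 1 of these.

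In Cdh1+/F;Trps1F/F organoids 7 rose (19.4%) and 10 fell (27.8%), against 20.5% and 20.3% of all genes, with medians of -0.04 and 0.04, so the share called was near that of all genes. Aldoc fell from 4045 and 4044 to 1702 and 1714 (-1.24 ± 0.10, adjusted p = 6.00e-06), Slc16a3 by 1.38, P4ha2 and Ddit4 by 0.65 each, Pfkl by 0.61 and Ldha by 0.41. Ldhb rose by 0.91, Hif1a by 0.78 and Pfkp by 0.43. The count was 10 without the first day 14 library or the second day 28 library, against 17 with all. Calls for Car9 (-0.74), Epas1 (-0.24), Gapdh (-0.84), Higd1a (0.67), Pfkfb3 (0.42), Pfkm (0.61), Pgk1 (0.35) and Slc16a1 (-0.22) were lost without 1 or more libraries.

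Set against Cdh1F/F;Trps1+/+ organoids, the Cdh1+/F;Trps1F/F organoids differ at both loci, and effects of Cdh1 and Trps1 cannot be told apart. Their clearest difference was in Slc2a1, with 12070 and 12350 in the controls and 3892 and 3390 in Cdh1+/F;Trps1F/F organoids at day 14 (-1.75 ± 0.11, adjusted p = 1.31e-07). At day 28 it held 12980 and 12930 against 3244 and 3616 (-1.92 ± 0.11, adjusted p = 2.59e-08). At day 14, 6 members rose (16.7%) and 12 fell (33.3%), against 18.9% and 17.4% of all genes, with medians of -0.11 and 0.02. Egln3 (-1.40), Bnip3 (-0.82), Hk2 (-0.59), Pfkp (-0.59), Eno2 (-0.68), Ldhb (-0.62), Slc16a1 (-0.51), Pgk1 (-0.45) and Hk1 (-0.40) fell, and Epas1 (0.87) and Pfkfb3 (0.83) rose. P4ha1, at 4395 and 4580 against 4840 and 4329, was not called at day 14. The fibroblast marker sums given above were higher in the Cdh1+/F;Trps1F/F organoids, and their part was not tested. Calls for Aldoc (0.32), Car9 (0.94), Gpi1 (-0.23), Ldha (0.31), Pfkm (0.54) and Slc16a3 (-0.68) were lost without 1 or more libraries, with adjusted p up to 0.274.

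At day 28, 16 members rose (44.4%) and 9 fell (25%), against 28.6% and 24.7% of all genes, with medians of 0.23 and 0.03. Of all genes called, 53.7% were higher, and 41.8% after quantile normalization. Adm held 306 and 484 in the controls and 1298 and 1169 in Cdh1+/F;Trps1F/F organoids (1.68 ± 0.17, adjusted p = 3.25e-06), and P4ha1 1301 and 1799 against 4065 and 4283 (1.45). Epas1 rose by 1.34, Pfkm by 1.16, P4ha2 by 1.15, Hif1a and Higd1a by 0.87 each, Pdk1 by 0.70, Vegfa by 0.67, Eno2 and Pfkfb3 by 0.65 each, Hk2 by 0.56 and Bnip3 by 0.43. Aldoc (-1.41), Ddit4 (-1.39), Gapdh (-1.30), Pkm (-0.62) and Hk1 (-0.60) fell. Skeletal muscle markers summed to 41750 to 53620 in Cdh1+/F;Trps1F/F organoids and 4621 to 6707 in the controls of that day, and the muscle isoforms Eno3 (2.30), Pgam2 (2.65) and Pygm (2.82) were higher together with Pfkm. Lox (3.07) and Loxl2 (3.25), collagen crosslinking enzymes among the 33 other hypoxia induced genes, were higher together with the fibroblast markers; 21 of that list rose and 5 fell. Calls for Aldoa (0.31), Eno1 (-0.39), Pfkl (-0.28), Pgk1 (0.23), Slc16a3 (-0.90) and Tpi1 (0.24) were lost without 1 or more libraries, and Aldoa turned to -0.01 after quantile normalization.

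The Trps1F/F genotypes were also set against each other, Cdh1F/F against Cdh1+/F. They differed in Trps1 mRNA too, at 11.05 to 11.39 in Cdh1F/F and 9.45 to 10.04 in Cdh1+/F on the log2 scale. Effects of Cdh1 and of the Trps1 level therefore cannot be told apart here. At day 14, 7 members were higher (19.4%) and 9 lower (25%) in Cdh1F/F, against 19.0% and 21.6% of all genes, with medians of 0.01 and 0.01. At day 28, 13 were higher (36.1%) and 14 lower (38.9%), against 27.7% and 29.0%, with medians of -0.02 and 0.02. The share of higher calls among all genes called went from 46.8% to 57.7% at day 14 and from 48.9% to 61.8% at day 28 after quantile normalization. Slc2a1 was higher in Cdh1F/F by 1.39 at day 14 and 1.50 at day 28. P4ha1 was lower by 1.27 and 1.61 on the log2 scale, with 4395 and 4580 against 1833 and 1883 at day 14 and 4065 and 4283 against 1393 and 1333 at day 28. P4ha2 (-1.38, -1.99), Adm (-1.48, -1.35), Epas1 (-0.98, -1.36) and Pfkm (-0.88, -1.95) were lower at both days. Slc16a1 was lower by 0.59 and 0.53 and Hk1 higher by 0.46 and 0.34. At day 28 Egln3 (-1.80), Eno2 (-1.40), Pfkfb3 (-1.18), Ldhb (-0.88) and Pfkp (-0.32) were lower as well, and Car9 (0.87), Pkm (0.70), Eno1 (0.65), Pgk1 (0.62), Ldha (0.43) and Pgam1 (0.37) were higher. Vegfa was higher at day 14 (0.79). The calls for Egln1 at both days, for Eno1, Pfkfb3, Pfkp and Pgk1 at day 14 and for Aldoa, Bnip3, Hk2 and Pfkl at day 28 were lost without 1 or more libraries. Aldoc turned from -0.42 at day 14, a call lost without the second Cdh1F/F library (-0.33), to 1.00 at day 28, and Ddit4 from -0.48 to 0.94; whether this change with time differed between the genotypes was not tested. Ankrd37 was called in none of the 10 organoid comparisons, with 60.2 to 104 normalized counts, and Ndrg1 in 1. All 8 fibroblast and all 8 skeletal muscle markers were lower in Cdh1F/F at both days.

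In the tumors, the genotype comparison called no member: 0 of 35 rose and 0 fell in Trps1F/F (6 mice) against Trps1+/+ (3 mice), where 0% of 15871 genes rose and 0% fell by limma. At an unadjusted p under 0.05 there was 1 member, Hif1a (-0.75 ± 0.29, adjusted p = 0.8049), and 821 genes in all. The median log2 difference was 0.37 over the members and 0.01 over all genes. The members varied widely from tumor to tumor. Their median range over the 11 tumors was 2.54 on the log2 scale, against 1.71 for all genes tested.

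Slc2a1 ran from 815 in the second tumor of mouse 18LCO025 to 9454 in the tumor of 17LCO102, with 903, 1827 and 5353 in the Trps1+/+ tumors. Car9 ran from 23.1 to 867, Slc16a3 from 97.6 to 3696, Egln3 from 38.1 to 2625 and Ankrd37 from 11.6 to 328, each with Trps1+/+ and Trps1F/F tumors overlapping. At the other end Hk1 ran from 2992 to 5334, a range of 0.83, Egln1 had a range of 1.06 and Ldha of 1.21. The tumor of 17LCO102 (subgroup 2) was highest for 12 members and that of 18LCO003 (subgroup 1) for 10, among them Car9, Vegfa, Adm, Ndrg1 and Pdk1. The third tumor of 18LCO025 (subgroup 3) was lowest for 9 and the Trps1+/+ tumor of 18LCO046 for 8. High and low values did not follow the genotype: the Trps1+/+ tumor of 18LCO128 was highest for 5 members, among them Bnip3 and Hif1a.

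**Figure D4:**
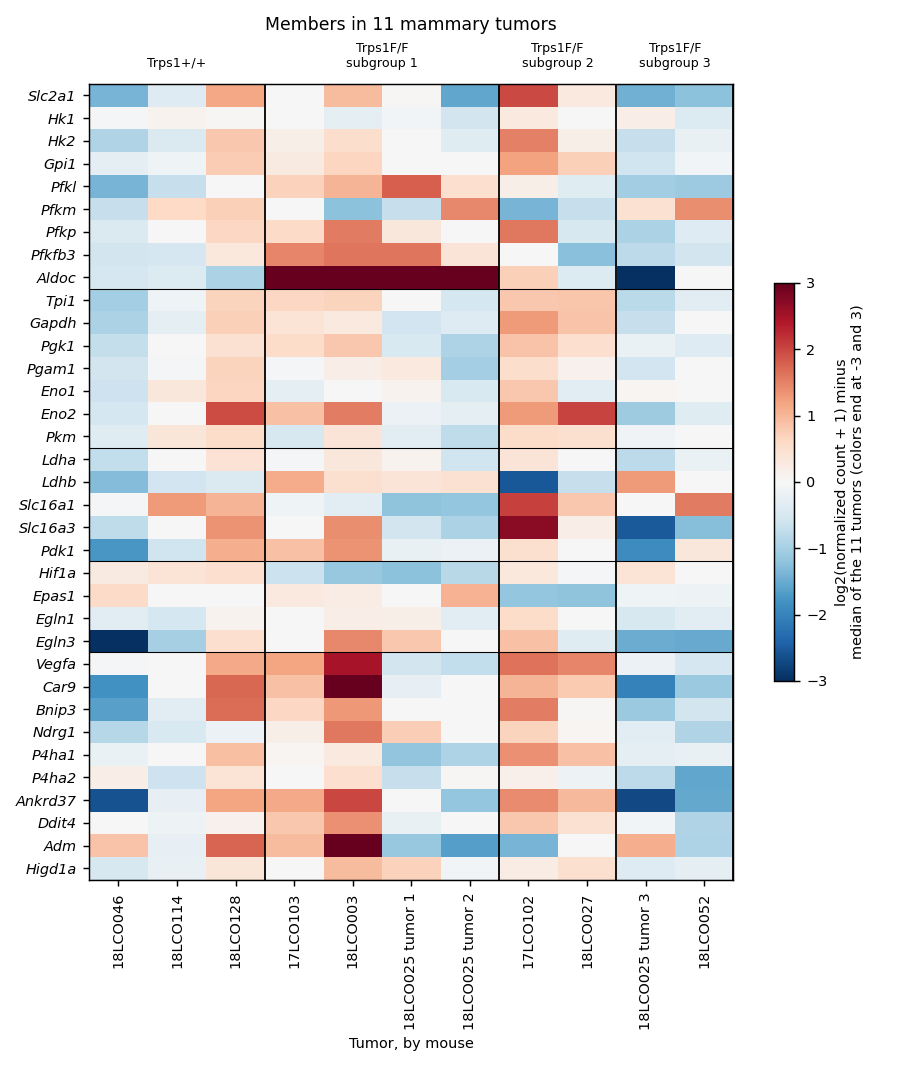
Members (rows, by role) in the 11 tumors (columns, by genotype and subgroup), coloured by log2(normalized count + 1) minus the member's median over the tumors, with colours ending at differences of -3 and 3. The tumors of 17LCO102, 18LCO003 and 18LCO128 hold the highest value of 12, 10 and 5 members, and the third tumor of 18LCO025 and the tumor of 18LCO046 the lowest of 9 and 8.

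Subgroup 1 stood apart by a few members. With 3 mice in each arm, 3 members rose (8.6%) and 1 fell (2.9%), against 8.92% and 6.63% of all genes, so the share called was not above that of all genes. Aldoc held 7270, 7080, 10980 and 5987 in the 4 subgroup 1 tumors, 151, 162 and 111 in the Trps1+/+ tumors and 26.2 to 354 in the other Trps1F/F tumors. No tumor outside subgroup 1 came near, and the log2 fold change was 5.74 ± 0.66 (SE, adjusted p = 0.00179). In mouse 18LCO025 the first and second tumors, of subgroup 1, held on average 298 times the Aldoc of the third tumor, of subgroup 3, a difference of 8.22 on the log2 scale. Per kilobase of exon, Aldoc stood at 2400 in subgroup 1 and at 43.2 in Trps1+/+ tumors. Hif1a was lower in subgroup 1, with 2743, 1948, 1833 and 2418 against 5192, 5765 and 6086 (-1.34 ± 0.19, adjusted p = 0.00365).

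Pfkl was higher in subgroup 1, with 6952, 8723, 14740 and 6050 against 1628, 2672 and 4264 (1.65 ± 0.32, adjusted p = 0.0127), as was Pfkfb3, with 2633, 2907, 2911 and 1241 against 645, 670 and 1180 (1.61 ± 0.36, adjusted p = 0.0205). The Pfkfb3 call was lost without any 1 of the mice 17LCO103, 18LCO003, 18LCO025, 18LCO046 and 18LCO114 (1.56, 1.48, 1.79, 1.46 and 1.48, adjusted p up to 0.0784). The Pfkl call was lost without 18LCO025 (1.56, adjusted p = 0.0623). Summed epithelial markers were 68130 to 134800 in subgroup 1 and 1893 to 32290 in all other tumors, and Cdh1 mRNA separated the same tumors, as given above. The part of epithelial content in these members' levels was not tested.

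Subgroups 2 and 3, with 2 tumors each, gave no call among the members. In subgroup 2, 0% of all genes rose and 0% fell; 3 members and 2103 genes had an unadjusted p under 0.05, and the medians were 0.65 and -0.01. Epas1 came closest, with 1021 and 982 against 3385, 2244 and 2266 (-1.37 ± 0.20, adjusted p = 0.106). In subgroup 3, 0.00630% of genes rose and 0% fell; 2 members, P4ha2 (-1.17) and Ldhb (1.41), and 957 genes had an unadjusted p under 0.05, and the medians were -0.38 and 0.00. The same Trps1+/+ tumors serve as controls in all of these comparisons.

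**Figure D5:**
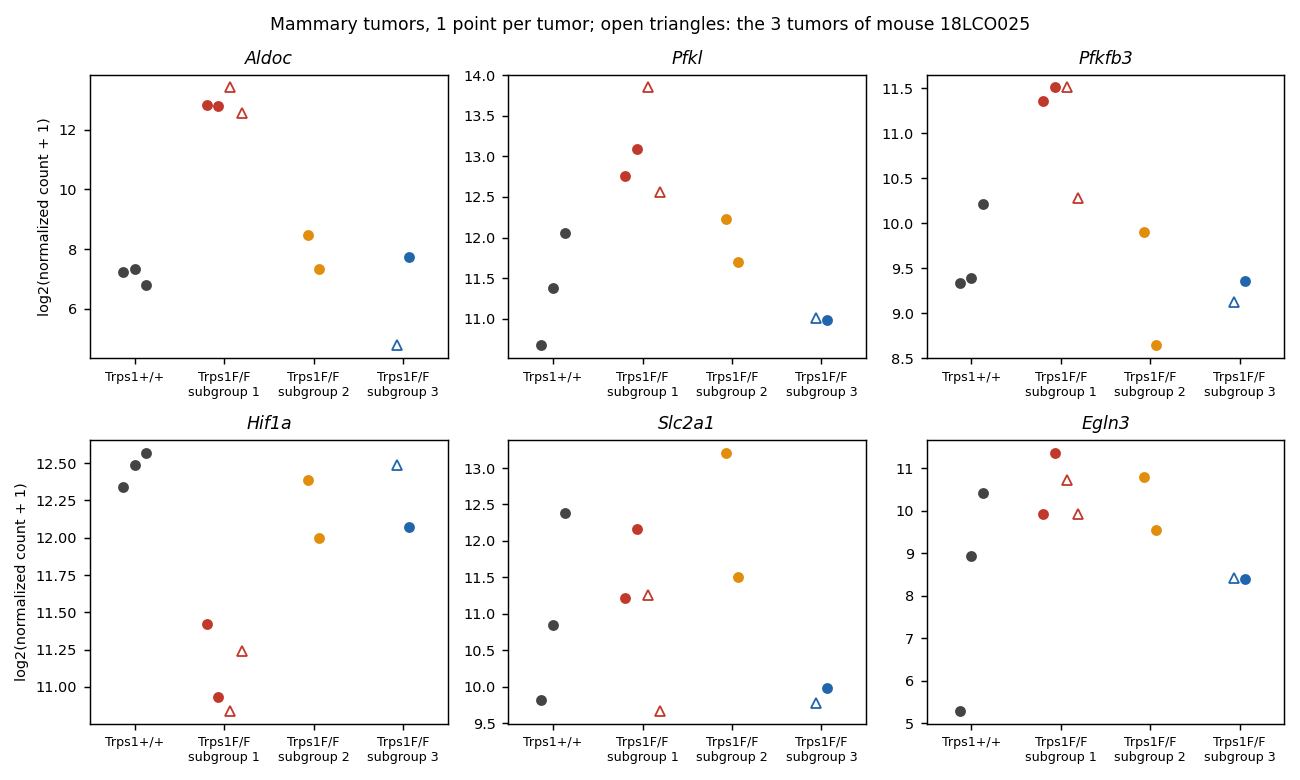
Log2(normalized count + 1) of 6 members in each tumor, by genotype and subgroup; each point is 1 tumor, and open triangles are the 3 tumors of mouse 18LCO025. Aldoc separates subgroup 1 (5987 to 10980 normalized counts) from all other tumors (26.2 to 354), and Hif1a is lower in subgroup 1 than in the Trps1+/+ tumors.

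The authors' deposited tables of differential expression cover 7 of these comparisons. By the authors' deposited tables, TSA raised 20 members and lowered 10, 16 rose and 5 fell with sgTrps1, 4 rose and 13 fell in Cdh1F/F;Trps1F/F organoids at day 14, and 9 rose and 11 fell at day 28. For subgroup 1 the authors' deposited table has 5 higher (Aldoc 5.79, Pfkl 1.68, Pfkfb3 1.54, Ldhb 1.37, Ndrg1 1.23) and 2 lower (Hif1a -1.35, Slc16a1 -1.49). For subgroup 2 the authors' deposited table has 1 lower, Epas1 (-1.39, adjusted p = 0.00361), and for subgroup 3 it has none. Of the members called in the authors' deposited tables and by limma, 0 had opposite directions.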

How the data were processed

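RNA of HC11 cells, organoids and tumors was sequenced after library preparation with a TruSeq RNA kit, per the labels' protocols. TopHat, HTSeq and the GRCm38 build are named in the submitters' processing notes, with no versions and no word on strand. The authors deposited log2(normalized count + 1) values per gene, normalized within each of the 4 tables, and adjusted p-values with log2 fold changes for 7 comparisons of their own. Whole reads could be recovered from the deposited log2 values, which gave the depths and the low count ratios; their 95% Poisson-based intervals cover counting error only. Counts were not used for the tests, because the deposited unit is log2.

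Rows with a date in place of a symbol (14 per table) and 1 row with no symbol in each of the guide RNA and organoid tables were left out. Genes with a normalized count plus 1 of at least 10 in as many libraries as the smallest group (3 for TSA, 2 elsewhere) were fitted with limma 3.58.1 in R 4.3.3 (moderated tests, variance trend), two-sided, with Benjamini-Hochberg adjustment over all genes tested and calls under 0.05. Fold changes are on the log2(normalized count + 1) scale, which understates changes of low genes. Organoids were fitted as 6 groups in 1 model. For the genotype comparison of tumors, all tumors of 1 mouse were averaged first. For the subgroup comparisons, tumors of 1 mouse and subgroup were averaged. Mouse 18LCO025 thus entered that model in subgroups 1 and 3 as separate units, although these are not independent. The fit was tested on simulated data. Exon lengths came from GENCODE M21 on GRCm38. The members and all lists were chosen with earlier results of these data known; all members and up to 4 genes per further list with the smallest p could be named. Same-numbered libraries did not deviate together where columns carried numbers (HC11 cells, Cdh1F/F;Trps1F/F organoids), so no pairing was used. Alternatives were another filter, pseudocount, scaling, variance model, sample set, the replicate block and leaving out each library or mouse.

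Eno1 has near-identical copies, and Pfkp, Higd1a, Bnip3, Ndrg1, Ankrd37 and Gpi1 have exons that overlap a gene on the opposite strand by 255 to 748 bases. Pkm and Pfkm overlap another gene on the same strand by 454 and 341 bases. Counting could have split or merged these genes' reads.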

Additional observations from a re-analysis of the deposited data

Results flagged for a closer look

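Among the 6 mice with Trps1F/F tumors, the tumor of mouse 17LCO102 stood far from the others in Eno1, at 14.11 on the log2 scale. The next mouse was at 13.29 and the lowest at 12.95, so the gap took 0.705 of the whole range, above the 95% critical value of Dixon's test for 6 samples. The criterion was applied to 35 members, at both ends of the range, and only Eno1 was marked. Chance alone marks about 1 group in 20 by this criterion, so a mark among so many members is no surprise. Eno1 has near-identical copies, so its counts are uncertain.

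The difference between Cdh1F/F;Trps1F/F and Cdh1F/F;Trps1+/+ organoids changed between day 14 and day 28 for 10 members, by the interaction term of the limma fit (2 libraries per group). The change, day 28 minus day 14 on the log2 scale, was 1.402 for Adm, 1.13 for P4ha1, 1.05 for Higd1a, 1.00 for Pgk1, 0.94 for Bnip3, 0.88 for Hif1a, 0.63 for Pdk1, 0.59 for Pgam1, 0.59 for Slc16a1 and -0.95 for Pfkfb3. Proliferation gene sums and fibroblast marker sums also changed between the same groups, as given with the organoid results, and their part was not tested.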

How the results depend on the processing

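Over all alternatives and comparisons, 2842 values of called members were recomputed: 2595 kept direction and call, 246 kept direction and lost the call, and 1 turned direction, Aldoa in Cdh1+/F;Trps1F/F organoids at day 28 after quantile normalization (-0.009). Of 246 member calls, 173 were kept in every alternative run. Leaving out 1 library at a time gave 25 to 30 members called for TSA (30 with all), 18 to 23 for sgTrps1 (20), 10 to 13 and 19 to 21 for Trps1F/F in Cdh1F/F organoids at days 14 and 28 (15 and 22), and 12 to 16 and 20 to 24 for Cdh1+/F;Trps1F/F organoids (18 and 25). It gave 12 to 15 and 24 to 26 for the comparison of Trps1F/F genotypes (16 and 27), and 9 to 13 for the interaction (10). With time, the counts were 15 to 21 in Cdh1F/F;Trps1+/+ (23), 10 to 17 in Cdh1F/F;Trps1F/F (19) and 10 to 15 in Cdh1+/F;Trps1F/F organoids (17). Leaving out 1 mouse at a time gave 3 to 4 for tumor subgroup 1 (4) and 0 for the other tumor comparisons. The cause was not tested, beyond fewer libraries in each fit.

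With the replicate number as a block, 30 members were called for TSA, 20 for sgTrps1 and 19 with time in Cdh1F/F;Trps1F/F organoids, the same counts as without it, and no direction changed. Same-numbered libraries correlated at -0.084, -0.003 and -0.063 for TSA, -0.193 for the guides and -0.032 for these organoids. With the guide numbers crossed, chosen after the data were seen, the block gave 22 members and 8814 genes, against 8255 uncrossed. For the other organoid comparisons, no paired analysis was possible because 1 or both groups have columns without distinct replicate numbers. Subgroup tumors and their Trps1+/+ controls come from different mice. Scaling moved the median of all genes by over 0.1 in 3 comparisons: quantile normalization took it from 0.03 to -0.10 for Cdh1+/F;Trps1F/F organoids at day 28 and from 0.02 to 0.15 between the Trps1F/F genotypes at day 28, and a common median took it from -0.01 to 0.12 for tumor subgroup 2. Low counts limit Slc16a3, Adm, Eno2, Egln3, Epas1, Car9 and Aldoc in HC11 cells.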
